A study of Mus musculus with 4 samples.

Results

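Wnt5a, its receptors Ror1 and Ror2, and 7 genes of planar cell polarity (Vangl1, Vangl2, Celsr1, Fzd6, Prickle1, Dvl2 and Ptk7) are described here in the trachea of mouse embryos. They were chosen by name, and all 10 were found among the 18193 genes that the platform annotation pairs with a probe set on the array. For each gene the brightest probe set, by mean log2(signal + 16) over all arrays, was taken, with the gene's other probe sets beside it. RNA came from trachea of C57BL/6 background at embryonic day 16, from 2 wild-type (WT) samples and 2 samples labelled a1H knockout. Each genotype has a replicate 1 and a replicate 2. The name a1H is read as the pore subunit of a T-type voltage-gated calcium channel, encoded by Cacna1h, and the labels do not say which part of the gene was deleted, in which cells, or whether samples were single embryos or pools. P-values therefore rest on sample-to-sample spread that may only be technical, and with 2 arrays against 2 an exact two-sided permutation test cannot go below 0.33.

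Planar cell polarity is the alignment of cells within the plane of a tissue. It is set by membrane complexes in which the cadherin Celsr1 bridges neighbouring cells, with Fzd6 and Dvl2 on one side of a cell and Vangl1, Vangl2 and Prickle1 on the other. Wnt5a is a secreted ligand that acts mostly without beta-catenin, through the receptor tyrosine kinase-like proteins Ror1 and Ror2, and Ptk7 is a related transmembrane pseudokinase. In the mouse, loss of Wnt5a is known to shorten the trachea, and Ror2 is known from growing cartilage and from the airway wall.

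The arrays and labels were checked first. The median signal of an array ranged from 320 to 459, lowest in labelled knockout replicate 2, and the actin 3' to 5' ratio, which rises as RNA gets shorter, was 1.69 and 1.66 on the WT arrays and 1.90 and 1.97 on those labelled knockout. The Gapdh ratio overlapped, at 1.26 and 1.40 against 1.36 and 1.61. The geometric mean of 9 spiked hybridisation controls went with the replicate number, at 4787 and 4744 on the replicate 1 arrays of WT and labelled knockout and 11598 and 14007 on the replicate 2 arrays, and its part in the differences between replicate numbers given below was not tested. Cacna1h itself read 630 and 538 on the WT arrays and 981 and 631 on those labelled knockout, so it was not lower there and the genotype labels could not be checked. Markers of airway epithelium, cartilage, smooth muscle and mesenchyme were present, with Cdh1, Sox2, Epcam and Trp63 in the upper part of each array's range and Nkx2-1, the factor of early tracheal epithelium, dim at 145 to 337. Transcripts of neighbouring or unrelated organs differed between arrays of one genotype. The summed signal of 7 T-cell genes was 5023 and 14482 on the WT arrays and 31240 and 12596 on those labelled knockout, and that of 3 placental genes was 181 to 442 on 3 arrays and 70513 on labelled knockout replicate 2. In such bulk samples, fewer cells of a type and less RNA per cell cannot be told apart.

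None of the 10 genes passed the test for a difference between the genotypes. The limma fit called 0 of 11694 genes, or 0.00%, at a threshold of 0.05 after Benjamini-Hochberg adjustment, and the lowest adjusted p of any gene was 0.875. Unadjusted p-values under 0.05 were found for 536 genes, or 4.58%, with 2.83% higher and 1.75% lower in the labelled knockout. Of the 10 genes only Wnt5a was among them, on the lower side. Read as values, 8 of the 10 genes had a log2 difference (labelled knockout minus wild type) below 0, against 44.1% of all genes tested, and the median over the 10 was -0.15, against 0.04 over all genes. Within the replicate numbers, the median of the 10 was -0.10 for replicate 1 and -0.23 for replicate 2. The groups did not overlap for 3 genes, Wnt5a, Fzd6 and Ptk7, all lower in the labelled knockout. Of all genes tested, 36.1% did not overlap, 14.6% with the labelled knockout lower and 21.5% with it higher. Of the 10 genes, 6 were lower within both replicate numbers, against 26.3% of all genes. These counts are for the arrays as deposited, with no centring on their median signal.

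**Figure D1:**
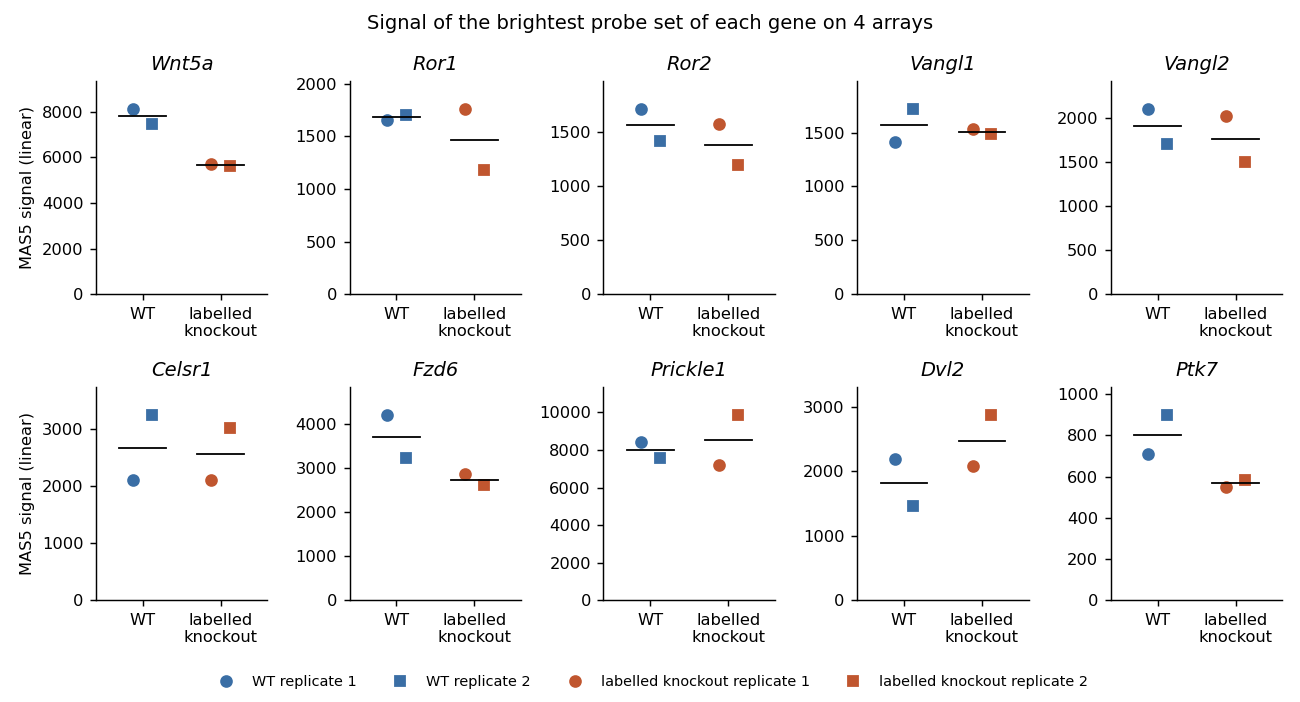
MAS5 signal (linear scale, from 0) of the brightest probe set of each gene in its own panel; points are single arrays, circles for replicate 1 and squares for replicate 2, and bars are means of 2 arrays. For Wnt5a, Fzd6 and Ptk7 both labelled knockout points lie below both wild-type points, and for the other 7 genes the groups overlap.

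The ligand Wnt5a read 8132 and 7466 on the WT arrays and 5722 and 5613 on those labelled knockout on its brightest probe set, 1436791_at. Both labelled knockout arrays lay below both wild-type arrays, and arrays of one genotype differed by less than the genotypes did. The means were 7799 ± 471 and 5667 ± 77.2 (SD, n = 2 per group). On the log2 scale the difference was -0.46 (SE 0.17), with a 95% interval of -0.85 to -0.06 before adjustment, an unadjusted p of 0.029 and a limma adjusted p of 0.875. It was -0.51 for the replicate 1 pair of arrays and -0.41 for the replicate 2 pair. By unadjusted p, Wnt5a stood at rank 260 of the 11694 genes, and 5.58% of them had a difference at least as low.

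The 3 further Wnt5a probe sets were also above the level at which genes were tested, a signal of 397, and had differences of the same sign. Probe set 1448818_at read 5205 and 5816 on the WT arrays and 2634 and 4089 on those labelled knockout, a log2 difference of -0.74. Probe set 1437673_at read 2415 and 2255 on the WT arrays and 1405 and 1805 on those labelled knockout, a difference of -0.55. On the dimmest, 1456976_at, wild type read 1012 and 569 and labelled knockout 599 and 400, so here the groups overlapped, with a difference of -0.62. All 4 probe sets were lower within both replicate numbers. They measure one transcript on the same arrays and are not independent. In a limma fit of all 22519 probe sets above that level, 0 passed, and the adjusted p of the 4 Wnt5a probe sets was 0.872.

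**Figure D2:**
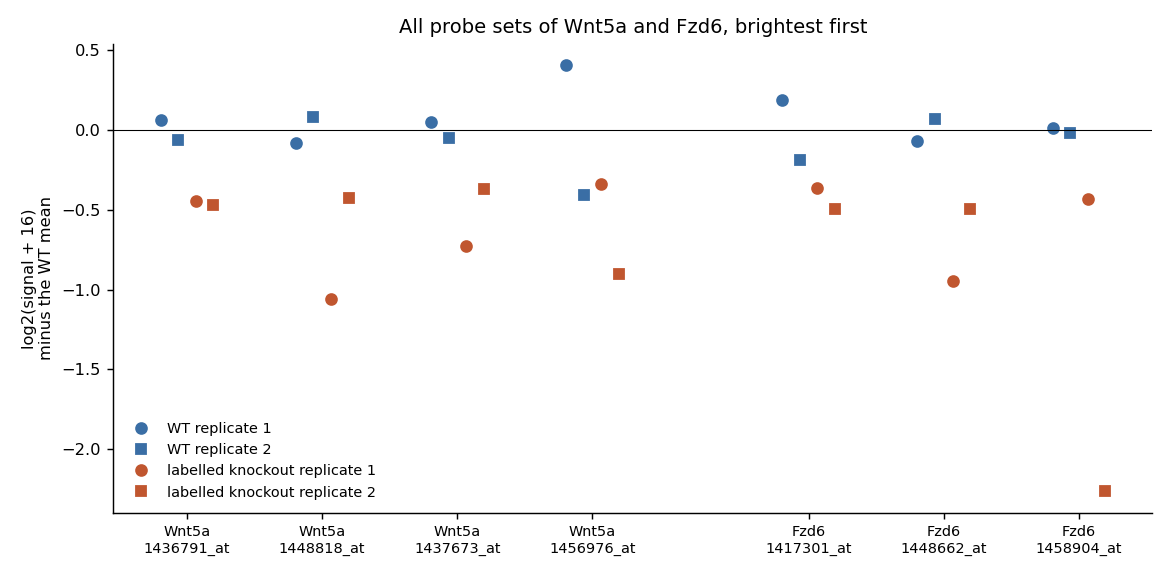
log2(signal + 16) of each probe set of Wnt5a and Fzd6 on the 4 arrays, minus the mean of the 2 wild-type arrays of that probe set; points are single arrays and there are no error bars. Labelled knockout points lie below all wild-type points on each probe set shown except Wnt5a 1456976_at.

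The receptors Ror1 and Ror2 overlapped between genotypes on their brightest probe sets. Ror2, through which Wnt5a signals in limb and airway mesenchyme, read 1710 and 1410 on the WT arrays and 1569 and 1191 on those labelled knockout. Replicate 1 arrays were the higher ones in both genotypes. The log2 difference was -0.18 with a 95% interval of -0.78 to 0.42 (limma adjusted p = 0.926). Ror1 read 1657 and 1708 on the WT arrays and 1762 and 1179 on those labelled knockout, where only replicate 2 was below the wild-type values. Its difference was 0.09 for replicate 1, -0.53 for replicate 2 and -0.22 over all, with an interval of -0.84 to 0.40. Without labelled knockout replicate 2 the differences were 0.07 for Ror1 and 0.02 for Ror2. Their dimmer probe sets were all below the tested level. Ror1 1429312_s_at did not overlap, at 334 and 232 on the WT arrays and 189 and 89.7 on those labelled knockout, and the groups overlapped on Ror1 1451014_at (-0.44) and Ror2 1457128_at (-0.80). Ror2 1457128_at read 508 and 206 on the WT arrays and 593 and 47.3 on those labelled knockout. Its difference was 0.22 for replicate 1 and -1.81 for replicate 2. With its 2 probe sets averaged, Ror2 had a difference of -0.49.

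Fzd6, a Frizzled receptor of the core polarity complex known for the orientation of hair follicles, read 4202 and 3225 on the WT arrays and 2861 and 2604 on those labelled knockout. The groups did not overlap, but the gap between the nearest arrays was smaller than the spread within wild type. The means were 3713 ± 690 and 2732 ± 182 (SD, n = 2). The log2 difference was -0.43 (SE 0.20), with an interval of -0.91 to 0.05 and a limma adjusted p of 0.875. It was -0.24 without wild-type replicate 1 and -0.62 without wild-type replicate 2. Its 2 other probe sets, 1448662_at and 1458904_at, were below the tested level and had differences of -0.72 and -1.35. Probe set 1458904_at read 103 and 100 on the WT arrays and 71.3 and 8.47 on those labelled knockout. Its difference was -0.44 for replicate 1 and -2.25 for replicate 2.

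Ptk7, the pseudokinase that acts with Vangl2 in neural tube closure, has 1 probe set, at 709 and 899 on the WT arrays and 550 and 584 on those labelled knockout. Both labelled knockout values were below both wild-type values, but the gap between the nearest arrays was smaller than the spread within wild type. The means were 804 ± 134 and 567 ± 24.4 (SD, n = 2). The log2 difference was -0.48 (SE 0.28), with an interval of -1.15 to 0.18 (limma adjusted p = 0.875). The difference was -0.36 for replicate 1 and -0.61 for replicate 2.

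The remaining membrane proteins of the core complex had differences near 0 with wide intervals, and their groups overlapped on the brightest probe set. Vangl2, the transmembrane protein whose loss gives the Looptail phenotype, read 2099 and 1705 on the WT arrays and 2016 and 1495 on those labelled knockout, a log2 difference of -0.12 with an interval of -0.71 to 0.46. As with Ror2, its replicate 1 arrays were the higher ones. Vangl1, its paralogue, read 1413 and 1720 on the WT arrays and 1531 and 1484 on those labelled knockout, a difference of -0.05 with an interval of -0.59 to 0.49. The second Vangl1 probe set, 1441097_at, gave the other sign, with 634 and 891 on the WT arrays and 891 and 1102 on those labelled knockout, a difference of 0.39. There the highest wild-type value lay just below the lowest labelled knockout value.

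Celsr1, the large cadherin of the complex, read 2106 and 3245 on the WT arrays and 2099 and 3009 on those labelled knockout. The 2 genotypes were nearly alike within each replicate number, with differences of -0.0046 and -0.11, whereas replicate 2 exceeded replicate 1 by 0.62 among WT and by 0.52 among labelled knockout arrays (log2). The summed signal of 9 airway epithelial markers was also higher on the replicate 2 array of each genotype, at 55781 and 73183 on the WT arrays and 48950 and 55951 on those labelled knockout. Single markers went both ways, with Scgb1a1 at 6483 and 17814 and Sox2 at 8218 and 6587 on the 2 WT arrays. The sums of 7 cartilage and 7 mesenchymal markers were higher on replicate 2 as well, at 65241 and 81758 for cartilage in WT and 54210 and 79725 in labelled knockout. The part of cell content in the Celsr1 values was not tested. The log2 difference between genotypes was -0.06, with an interval of -0.72 to 0.61.

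The cytoplasmic members were the 2 genes whose differences were above 0, and neither was higher within both replicate numbers. Dvl2, the scaffold that relays Frizzled signals, read 2192 and 1458 on the WT arrays and 2076 and 2873 on those labelled knockout. Labelled knockout replicate 2 was the highest array and wild-type replicate 2 the lowest. The difference was -0.08 for replicate 1, 0.97 for replicate 2 and 0.45 over all, with an interval of -0.21 to 1.10 (limma adjusted p = 0.875). It was 0.15 when WT replicate 2 was left out, 0.21 when labelled knockout replicate 2 was, 0.74 when WT replicate 1 was and 0.68 when labelled knockout replicate 1 was. Prickle1, the LIM-domain partner of Vangl proteins, read 8440 and 7545 on the WT arrays and 7174 and 9860 on those labelled knockout, whose arrays lay on either side of wild type. Its difference was 0.08, with -0.23 and 0.39 within the replicate numbers and an interval of -0.43 to 0.58.

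**Figure D3:**
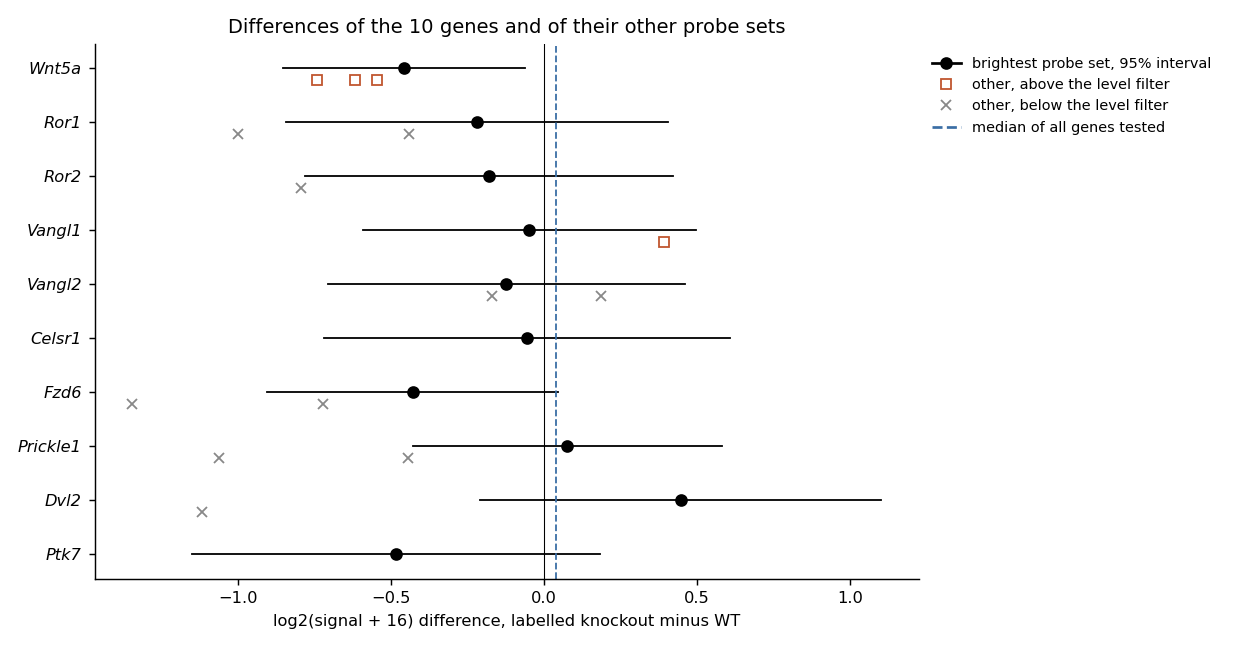
Difference in log2(signal + 16), labelled knockout minus wild type, for the brightest probe set of each gene (filled points, with the unadjusted 95% interval of the limma fit over 4 arrays) and for the gene's other probe sets (open squares above the tested level, crosses below it, no interval). Only the Wnt5a interval lies wholly below 0, and most crosses lie left of the filled points.

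Most dim probe sets of these genes read lower in the labelled knockout, as most dim probe sets did across the array. The 10 genes had 24 probe sets, 20 of them with a difference below 0. Over all genes tested, each by its brightest probe set, 44.1% were lower, and the share over all probe sets was not counted. Of the 24 probe sets, 10 were below the tested level, with 9 lower in the labelled knockout and a median difference of -0.76. Over all 22518 probe sets below that level, 73.0% were lower in the labelled knockout, with a median of -0.32, so a low difference on a dim probe set was common. The groups did not overlap, with the labelled knockout lower, on 6 of the 10, against 33.0% of all probe sets below that level. Probe sets of one gene are not independent. The exception in sign among the 10 dim probe sets was Vangl2 1419218_at, at 0.19. Prickle1 1444759_at averaged 217 ± 36.0 (SD, n = 2) in WT and 94.9 ± 0.15 (SD, n = 2) in labelled knockout, a difference of -1.06, against 0.08 on the bright probe set. Dvl2 1448616_at read 159 and 92.7 on the WT arrays and 40.2 and 56.1 on those labelled knockout, a difference of -1.12, against 0.45 on the bright one. Averaged over all probe sets of a gene, Prickle1 and Dvl2 changed sign, to -0.48 and -0.34, and so did Vangl1, to 0.17.

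The 10 genes did not vary as 1 group over the arrays. For 6 of the 10 (Ror1, Ror2, Vangl1, Vangl2, Celsr1 and Prickle1) the mean difference between replicate numbers was larger than that between genotypes, as for 54.3% of all genes tested. For Wnt5a, Fzd6 and Ptk7 the genotype difference was the larger one. It was so for Dvl2 only because its replicate differences had opposite signs and cancelled in the mean. Those were -0.58 in WT and 0.47 in labelled knockout, each larger in size than the Dvl2 genotype difference of 0.45. Wnt5a differed by -0.12 between the replicates of wild type and by -0.03 between those of the labelled knockout. The direction of the small differences depended on the scale of the arrays. Centring each array on its median signal moved the median difference of all genes tested from 0.04 to 0.27, and then 3 of the 10 genes stayed below 0, namely Wnt5a, Fzd6 and Ptk7. Median signals were 459 and 416 on the WT arrays and 426 and 320 on those labelled knockout, so centring raises replicate 2 differences more than replicate 1 differences. Differences within the replicate numbers, and the overlap of the groups, were not recomputed on centred arrays. Centring adds the same amount to every gene's difference, so values relative to the median of all genes tested are the same by construction: 8 of the 10 were lower than it, with Wnt5a at -0.50, Fzd6 at -0.47, Ptk7 at -0.52 and Dvl2 at 0.41.

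Genes whose 4 values ran most like those of Wnt5a were Cldn8, Zfp944 and Mpzl3, with Euclidean distances of 0.02, 0.04 and 0.06 between log2 values centred on each gene's mean over the 4 arrays. Cldn8, a tight junction claudin, read 4655 and 4291 on the WT arrays and 3273 and 3277 on those labelled knockout. For Ror2 the nearest were Tnks, Dnajc14 and Slc25a53, with distances of 0.02, 0.02 and 0.03. With 4 arrays many genes lie this near. Within a distance of 0.2 there were 153 genes, or 1.31% of those tested, for Wnt5a and 754, or 6.45%, for Ror2.

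The other genes of the pathway also had 0 calls in either direction. Of 39 listed genes, 37 were paired with a probe set and 33 were above the tested level. Of the 33, 22 were lower in value and 11 higher, where 44.1% of all genes tested were lower. The median log2 difference was -0.10, or -0.11 and -0.01 within replicate numbers 1 and 2, and 0 had an unadjusted limma p under 0.05. The groups did not overlap for 8 of the 33, 5 of them lower, against 36.1% of all genes tested and 14.6% on the lower side. Under centring of the arrays 7 were below 0 and the median was 0.14. Relative to the median of all genes, which centring does not alter, 24 of the 33 were lower.

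**Figure D4:**
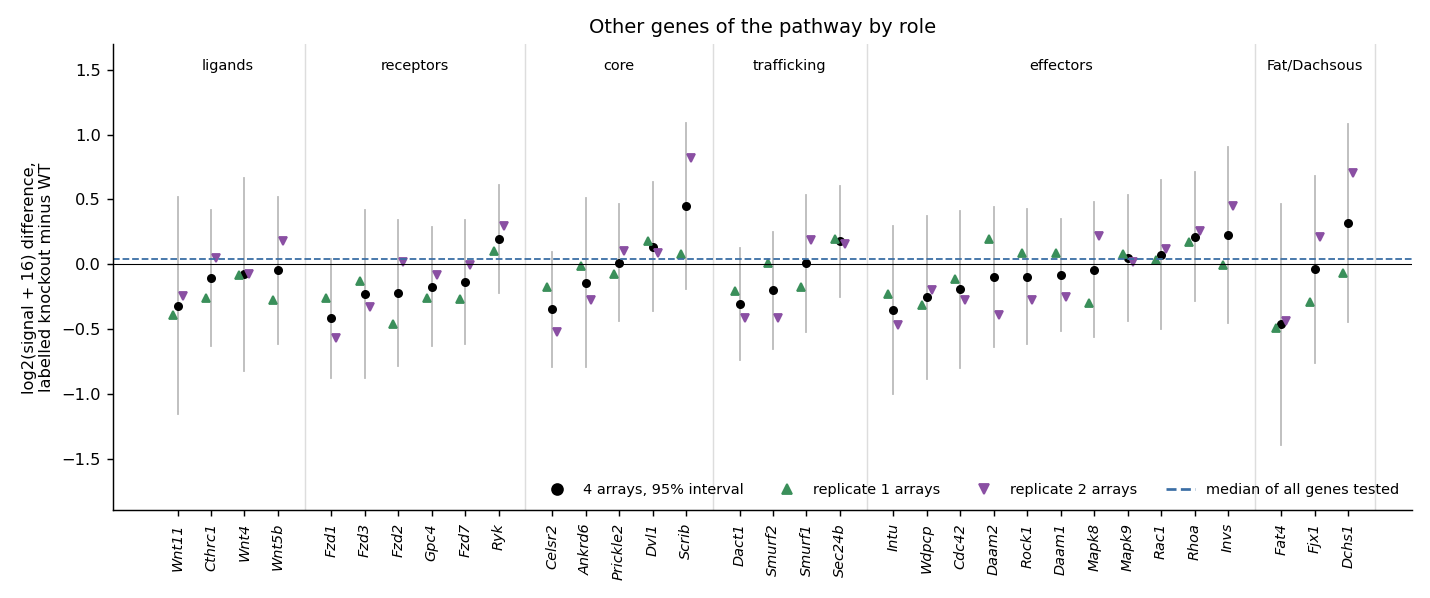
Difference in log2(signal + 16), labelled knockout minus wild type, of the 33 tested genes of the pathway list, grouped by role; filled points are the difference over 4 arrays with the unadjusted 95% interval, upward triangles the replicate 1 arrays and downward triangles the replicate 2 arrays. All 33 intervals include 0, and the gap between triangles is widest for Dchs1 and Scrib.

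Among ligands and receptors of that list, 4 of 4 and 5 of 6 tested genes had values below 0, against 44.1% of all genes tested. Within both replicate numbers, 2 of the 4 ligands and 4 of the 6 receptors were lower, against 26.3% of all genes. These counts are for arrays that were not centred. Wnt11, another ligand that acts in polarity, had a log2 difference of -0.32, and Wnt4 and Wnt5b had -0.08 and -0.05. Fzd1, a Frizzled receptor, read 11391 and 13165 on the WT arrays and 9490 and 8869 on those labelled knockout, a log2 difference of -0.42 with an interval of -0.88 to 0.04. Its groups did not overlap. Ryk, a Wnt-binding receptor-like protein, was the exception at 0.20, with 3498 and 3618 on the WT arrays and 3758 and 4437 on those labelled knockout.

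Core and trafficking genes went both ways. Celsr2, a paralogue of Celsr1, read 4280 and 4291 on the WT arrays and 3796 and 2984 on those labelled knockout, a log2 difference of -0.35 with an interval of -0.79 to 0.10. Scrib, a polarity scaffold that binds Vangl2, read 1178 and 922 on the WT arrays and 1244 and 1641 on those labelled knockout, a difference of 0.45. As with Dvl2, most of it lay between the replicate 2 arrays, at 0.82 against 0.08 between the replicate 1 arrays. Dact1, a Dishevelled-binding protein, had -0.31, and Sec24b, which exports Vangl2 from the endoplasmic reticulum, had 0.18, both without overlap.

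Downstream of the core, 7 of 11 effectors had values below 0, against 44.1% of all genes tested, and 3 of the 11 were lower within both replicate numbers. Intu, a planar polarity effector of ciliogenesis, had a log2 difference of -0.35 and Rhoa, the GTPase that acts on the actin cytoskeleton, had 0.21, both with overlap. In the Fat and Dachsous pair of giant cadherins, Fat4 had -0.46 and Dchs1 had 0.32. Fat4 read 8187 and 4116 on the WT arrays and 5808 and 3039 on those labelled knockout, so its replicate 1 arrays were the higher ones in both genotypes. Fat4 passed the limma test without labelled knockout replicate 1, where 492 genes passed in all, and in no other fit run here.

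Of the cell populations, 7 mesenchymal and fibroblast markers all had values below 0, against 44.1% of all genes tested. Their median log2 difference was -0.16. Their summed signal was 61768 and 75215 on the WT arrays and 55097 and 67344 on those labelled knockout. Centring of the arrays, which moved the median of all genes tested from 0.04 to 0.27, was not applied to the marker lists. It adds the same amount to every difference, and it moved Ror1 from -0.22 to 0.012. Of the 7 mesenchymal markers, only Tbx4 at -0.68 and Foxf1, a factor of the airway wall, at -0.50 were further below 0 than Ror1. The others, from -0.17 for Pdgfra to -0.05 for Col1a1, were nearer 0. Their sign depends on the scale of the arrays, as does that of list medians this near 0. Of the 9 epithelial markers 7 were below 0, with a median of -0.28. The cartilage, smooth muscle and endothelial lists also had medians below 0, at -0.22, -0.19 and -0.13. That of smooth muscle was 0.23 within replicate 1 and -0.72 within replicate 2. Medians were below 0 for heart, lung, thyroid, skin, and liver and yolk sac as well. They were above 0 for placenta, thymic epithelium, T cells, glia, neurons, salivary gland, erythroid cells, macrophages and skeletal muscle. Many of these signs did not hold within both replicate numbers. Medians for T cells, salivary gland, erythroid cells, macrophages, heart, lung, and liver and yolk sac had opposite signs in replicates 1 and 2. T cells had 2.61 and -0.06, and heart had 0.67 and -3.24. Placenta had 0.10 and 6.58. Skeletal muscle, at 0.06 over all arrays, had -0.32 and -0.21. The part of these lists in the Wnt5a and Fzd6 values was not tested.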

How the data were processed

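Total RNA was extracted with Trizol, amplified as cDNA with the Ovation Pico system and labelled with biotin, per the labels' protocols. The deposited values are linear intensity values, 1 MAS5 signal per probe set and array, per the submitters' processing notes. Its version and settings were not given in the sources used here. The mean after trimming was near 1500 on every array, so values looked scaled per array. MAS5 is noisy for dim probe sets.

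Groups and replicate numbers came from sample titles. Of 45101 probe sets, 64 controls were left out, and 34945 had exactly 1 gene in the platform annotation, named through a RefSeq table of GRCm38.p6 by gene identifier for 34741. The brightest probe set per gene was tested where its mean log2 value reached the median over the non-control probe sets. The fit was limma 3.58.1 in R 4.3.3 (lmFit, eBayes with an intensity trend) on log2(signal + 16), genotype as the only term, with Benjamini-Hochberg adjustment over all genes and a threshold of 0.05. This scale understates differences of dim genes. Scripts were tested on simulated data. Named genes are the 10 genes, in each direction the 5 pathway genes with the smallest unadjusted p, the 3 genes nearest to Wnt5a and to Ror2, Cacna1h, and markers; Wnt4, Wnt5b and Wnt11 were added after their values were seen. Genes and lists were chosen with earlier results of these data known. Figures used matplotlib 3.10.9. Alternatives are given under the dependence on processing.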

Additional observations from a re-analysis of the deposited data

How the results depend on the processing

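No gene of the 10 passed the limma test under any of 14 other settings, nor with all probe sets tested separately, which was added after the data were seen. Wnt5a stayed below 0 throughout, between -0.59 (probe sets averaged) and -0.23 (arrays centred on their median), with adjusted p of 0.255 or more, and so did Fzd6 (-0.83 to -0.20) and Ptk7 (-0.65 to -0.25). With centred arrays Ror1 was 0.012, Ror2 0.051, Vangl1 0.18, Vangl2 0.11 and Celsr1 0.18, and 7 pathway genes were lower, with a median of 0.14. With a gene's probe sets averaged, Vangl1 was 0.17, Prickle1 -0.48 and Dvl2 -0.34, and Ror2 moved to -0.49. Leaving out 1 array in turn gave -0.51 to 0.067 for Ror1, -0.38 to 0.015 for Ror2, -0.19 to 0.092 for Vangl1, -0.34 to 0.091 for Vangl2, -0.37 to 0.25 for Celsr1, -0.15 to 0.30 for Prickle1 and 0.15 to 0.74 for Dvl2. Genes past the threshold then numbered 0 to 492 (0 and 1 without wild-type replicates 1 and 2, 492 and 104 without labelled knockout replicates 1 and 2), and pathway genes 0 to 1. Reasons for these moves were not tested. Where an array is left out, the lone one is assumed to vary like the pair. The replicate block gave adjusted p of 0.411 for Wnt5a and 0.417 for Fzd6, and 0 genes passed. Deviations of same-numbered arrays correlated at 0.32 over genes, and spiked controls also went with the number, but the labels do not say that numbers mark pairs. Above the 75th percentile of level, 6 of the 10 genes were tested, and Ptk7 and 3 others gave no value; with probe sets averaged, 1 of the 10 was too dim. The 2 arrays per group and dim probe sets limit what could be seen.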
